A study of Mus musculus with 39 samples.

Results

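Mir191 and Mir425 are neighbouring miRNA hairpin genes on mouse chromosome 9, and their 4 mature arms were followed through 39 heart libraries of small RNA from FVB/NJ mice. The pair was chosen by values measured in these same libraries: the coupling of its hairpins and the wide spread of miR-191-5p. Both are therefore given below as descriptions with no test. The members are 4 of the 1684 arm features in the count files. The files held no row named for Mir191. Its reads lay in rows named for Gm24083, a predicted miRNA gene annotated on the opposite strand of the same hairpin and deposited as antisense to it. These rows were assigned to Mir191 by position and strand, and the Mir425 rows by name.

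There were 23 male libraries, of which 2 were from mice aged 4 weeks, 3 from 5 weeks, 12 from 6 weeks, 1 from 7 weeks, 4 from 8 weeks and 1 from 16 weeks. The 16 female libraries comprised 6 from 6 weeks, 3 from 7 weeks, 2 from 8 weeks and 5 from 9 weeks. All mice were of the wild-type genotype, and the labels name no treatment. RNA came from ventricular apexes by the protocol, although the tissue tag gives the whole heart. Whether each library came from its own animal is not stated, so every p-value reflects only how libraries differ from each other, which may be technical.

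A miRNA gene is transcribed as a long primary transcript, the nuclease Drosha cuts out a hairpin, and Dicer cuts the hairpin into a short duplex. One arm of the duplex is usually loaded into an Argonaute protein and kept, while the other is mostly degraded. Bases 2 to 8 of the loaded arm, the seed, pair with target messages. Hairpins on 1 primary transcript start from the same number of copies, although processing and decay can differ between them. miR-191-5p is abundant in many tissues and in blood cells and has been used as a reference for quantitative PCR. In human, miR-425-5p represses the message of the atrial natriuretic peptide gene NPPA.

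The hairpins are shown whole, with the mature arms in capitals, because the results turn on which arm and which hairpin was counted. All sequences are from RefSeq on GRCm38.p6, plus strand, and all 4 arms were matched.
Mir191 hairpin, chr9:108568319-108568392: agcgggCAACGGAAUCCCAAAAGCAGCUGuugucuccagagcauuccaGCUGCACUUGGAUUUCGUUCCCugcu
Mir425 hairpin, chr9:108568777-108568861: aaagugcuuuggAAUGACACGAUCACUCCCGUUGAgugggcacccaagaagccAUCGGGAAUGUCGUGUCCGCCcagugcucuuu
The hairpins are 74 and 85 bases long and 384 bases apart. RNAfold gave a minimum free energy of -35.0 kcal/mol for Mir191 and -31.7 kcal/mol for Mir425.

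The mature arms follow, with the seed in capitals, to show that no 2 of the 4 arms share a seed.
miR-191-5p: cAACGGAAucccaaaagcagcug
miR-191-3p: gCUGCACUuggauuucguuccc
miR-425-5p: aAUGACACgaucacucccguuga
miR-425-3p: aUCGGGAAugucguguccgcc
Among the mature miRNAs of the RefSeq table, 1 other arm shared a seed with a member. This was miR-489-3p, which carries the seed of miR-425-5p and was counted 4 times in all 39 libraries together.

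The label of the pair as intronic depends on the annotation. In RefSeq, both hairpins lie inside the span of Dalrd3 (chr9:108567484-108572773), a gene whose protein binds arginine tRNAs. In GENCODE M21, both lie in the single exon of the long non-coding transcript 4833445I07Rik-201 (chr9:108567533-108569174), and the Dalrd3 gene starts 1024 bases downstream of the Mir425 hairpin. Mir191 also lies in the intron of 4833445I07Rik-202.

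The counting windows matter for the levels. The Mir425 windows equal the RefSeq arms (5p chr9:108568789-108568811, 3p chr9:108568830-108568850). The window of miR-191-5p, chr9:108568321-108568341, starts 4 bases before the arm and stops 6 bases short of its end, so it shares 17 of 23 bases with it. It is shown in capitals within the hairpin.
miR-191-5p counting window: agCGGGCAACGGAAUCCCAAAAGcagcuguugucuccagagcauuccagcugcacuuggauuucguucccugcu
The window of miR-191-3p, chr9:108568366-108568386, shares 20 bases with its arm. How reads were assigned to windows is not given in the sources used here, and its part in the level of miR-191-5p was not tested. On the opposite strand of Mir191, 12 counts were found in all libraries together, and no more than 3 in any library.

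Total counts ran from 1788245 to 14563754 per library, and the limit set by a count of 0 was 0.206 to 1.68 CPM (counts scaled by the file total). All 4 arms were counted in all 39 libraries. Intervals and floors cover counting error only. Libraries were grouped by clustering into 7 sets by the way reads divided between the loci of 10 miRNAs with 2 genomic copies, none of which is a member. What the sets stand for is not given in the labels. Set 1 held all 5 males of 4 and 5 weeks and 1 female of 6 weeks. Set 7 held the 5 females of 9 weeks, and set 2 held 5 of the 12 males of 6 weeks. Only sets 3 and 4 held both sexes at 6 weeks. No set held males of both 5 and 6 weeks or of both 7 and 8 weeks, and the females of 9 weeks shared no set with another age, so across those steps set and age cannot be told apart. In 4 libraries 1 arm took over 40% of all counts (miR-143-3p in 3 of them, miR-378a-3p in the other), which lowers the CPM of all other arms. Heart muscle miRNAs (14 listed arms of miR-1a, miR-133a, miR-208a, miR-208b and miR-499) summed to 5.64% to 16.1% of counts, and their main arms were found in all libraries.

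miR-191-5p, the loaded arm of its hairpin, was the 16th most abundant arm in the hearts, with a mean of 12792 CPM, or 1.28% of counts. miR-425-5p ranked 134th, with a mean of 128 CPM. The remaining arms were rare: miR-191-3p ranked 242nd with a mean of 16.9 CPM, and miR-425-3p ranked 267th with a mean of 11.8 CPM. All levels are per arm, and ligation favours some sequences over others, so the order between arms holds for these libraries and not for molecules.

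The level of miR-191-5p varied more than 5-fold, from 3881 to 21522 CPM, and libraries of 1 sex and age held both high and low levels. In males it was 20939 and 20754 CPM at 4 weeks and 20185, 21522 and 20541 CPM at 5 weeks. At 6 weeks the males ran from 4502 CPM to 20956 CPM with a median of 7205 CPM. The single male library of 7 weeks was at 7216 CPM. The 4 males of 8 weeks stood at 7261, 11282, 9772 and 10226 CPM, and the male of 16 weeks at 18541 CPM. Males of 4 and 5 weeks were thus all near the top of the range, those of 7 and 8 weeks were all lower, and the 6-week males spanned nearly the whole range.

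In females, miR-191-5p ran from 4265 CPM to 21201 CPM at 6 weeks with a median of 19237 CPM. It was 7805, 3881 and 7882 CPM at 7 weeks, and 7317 and 16151 CPM at 8 weeks. At 9 weeks it was 19809, 14366, 14688, 14433 and 14523 CPM. The 7-week females were low, the 9-week females were all higher than the 7-week females, and the 6-week females again overlapped both.

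**Figure D1:**
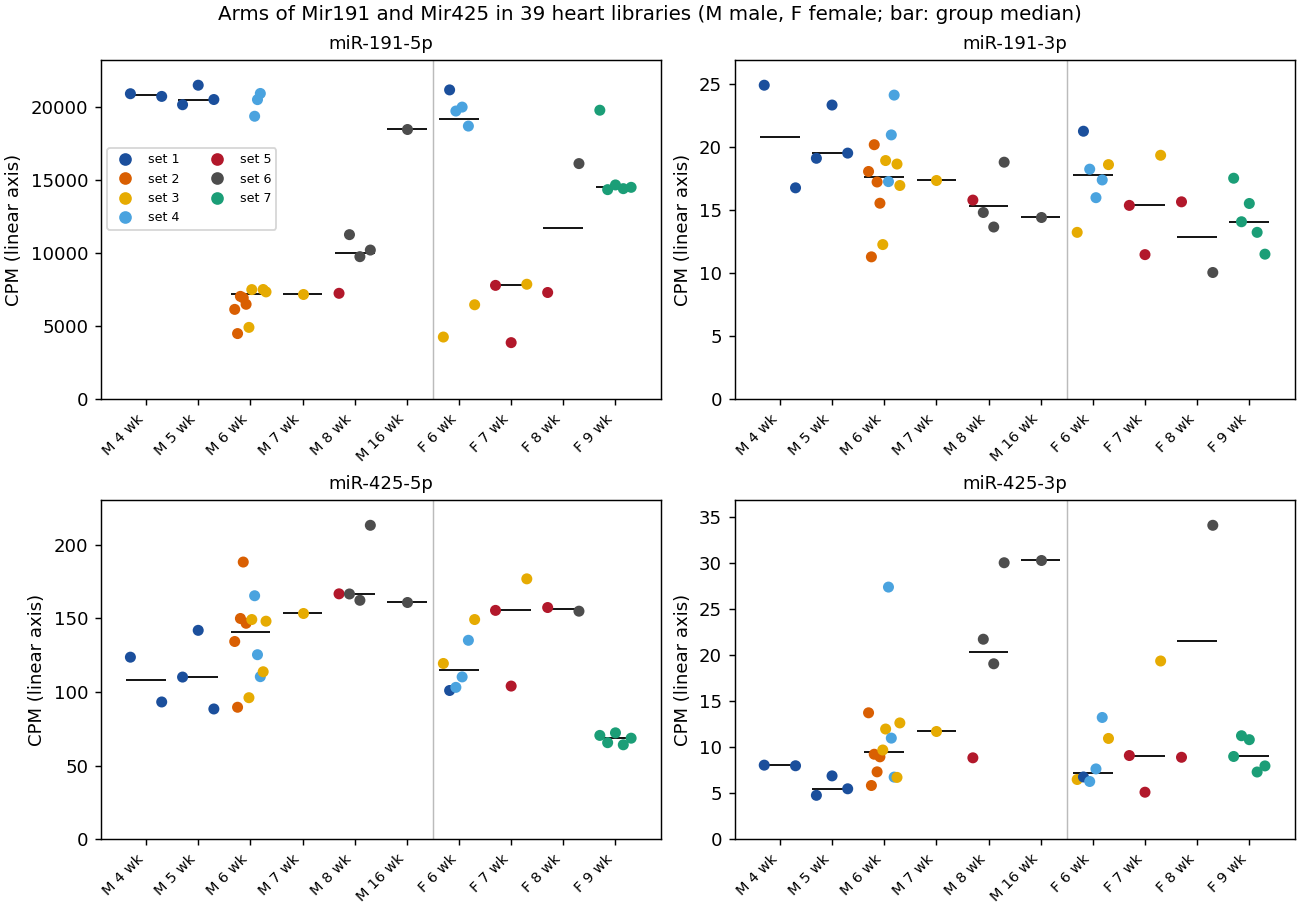
CPM of each arm (linear axis) in each library, by sex and age, coloured by library set, with the group median as a bar. miR-191-5p was at 18722 CPM or more in sets 1 and 4 and at 7882 CPM or less in sets 2, 3 and 5, also among mice of 1 sex and age, while miR-425-5p ran from 64.2 to 213 CPM and was lowest in the females of 9 weeks.

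By library set the levels of miR-191-5p separated for some sets and overlapped for others. The 12 libraries of sets 1 and 4 held 18722 to 21522 CPM, and the 17 libraries of sets 2, 3 and 5 held 3881 to 7882 CPM. Set 6 ran from 9772 to 18541 CPM and set 7 from 14366 to 19809 CPM. Within set 6 the 3 males of 8 weeks stood at 9772 to 11282 CPM, the male of 16 weeks at 18541 CPM and the female of 8 weeks at 16151 CPM. Among the 12 males of 6 weeks, the 3 libraries of set 4 stood at 19395 to 20956 CPM, and the other 9 stood at 4502 to 7521 CPM. Among the 6 females of 6 weeks, the 3 libraries of set 4 and the 1 library of set 1 stood at 18722 to 21201 CPM, against 4265 and 6476 CPM in the 2 libraries of set 3. The 4 libraries dominated by 1 arm were the lowest of all, at 3881 to 4926 CPM, and the other 13 libraries of sets 2, 3 and 5 stood at 6159 to 7882 CPM. The coefficient of variation of miR-191-5p was 2.28% in set 1 and 4.02% in set 4, but 16.6%, 20.1%, 27.5%, 29.7% and 15.3% in sets 2, 3, 5, 6 and 7. Single libraries weighed on most of these larger values. Sets 2, 3 and 5 each held dominated libraries, and their other libraries stood at 6159 to 7052, 6476 to 7882 and 7261 to 7805 CPM. In set 7, 1 library was at 19809 CPM and the others at 14366 to 14688 CPM.

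Blood markers are given beside these sets. The red blood cell miRNAs (7 listed arms of miR-451a, miR-144 and the miR-486 pair) had median sums of 12.4%, 10.6%, 12.9% and 18.1% of counts in sets 1, 4, 6 and 7. In sets 2, 3 and 5 the medians were 7.30%, 7.19% and 7.35%, with ranges that overlapped (5.49% to 16.2% in set 2, 7.82% to 12.7% in set 4), and 1 library of set 6 reached 40.5%. The 5p arms of the miR-486 pair made up most of the red blood cell sums on average. Their means were 53832 CPM (miR-486-5p) and 58906 CPM (miR-3107-5p), against 4057 CPM for miR-451a and 646 CPM for miR-144-3p. The white blood cell list (13 arms of miR-150, miR-142, miR-223, miR-155, miR-342 and miR-146a) had set medians from 0.308% to 0.375%. None of the main arms of either list was at 0 in any library. The part of blood cells in the level of miR-191-5p was not tested, and in whole tissue fewer cells of a type and less RNA per cell cannot be told apart.

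The partner arm miR-191-3p, cut from the same hairpin, had overlapping levels in these sets. It ran from 16.0 to 24.9 CPM in sets 1 and 4 and from 11.3 to 20.2 CPM in sets 2, 3 and 5. Its counts were 18 to 272 per library. The lowest level, 10.1 CPM, came from 18 counts in the shallowest library, a female of 8 weeks, with a 95% Wilson interval of 6.37 to 15.9 CPM.

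miR-425-5p, the loaded arm of the neighbouring hairpin, moved within narrower bounds. It was 124 and 93.3 CPM in males of 4 weeks and 110, 142 and 88.5 CPM in those of 5 weeks. At 6 weeks the males ran from 89.7 to 188 CPM with a median of 141 CPM. It was 154 CPM at 7 weeks, then 167, 167, 162 and 213 CPM at 8 weeks, and 161 CPM at 16 weeks. The males of 8 weeks were all above those of 4 and 5 weeks, while the 6-week males overlapped both.

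In females miR-425-5p ran from 101 to 149 CPM at 6 weeks with a median of 115 CPM. It was 155, 104 and 177 CPM at 7 weeks, and 157 and 155 CPM at 8 weeks. The 5 females of 9 weeks held 70.6, 65.6, 72.3, 64.2 and 68.7 CPM, below all other libraries of either sex. These 5 libraries are the whole of set 7, so age and set cannot be told apart there.

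The rare arm miR-425-3p ran from 19.1 to 34.1 CPM in set 6, against 4.78 to 27.4 CPM in the libraries of sets 1 to 5 and 7, and 2 of those (a male of 6 weeks at 27.4 CPM and a female of 7 weeks at 19.4 CPM) reached into its range. Set 6 holds 3 of the 4 males of 8 weeks, the male of 16 weeks and 1 female of 8 weeks. The male of 8 weeks outside set 6 was at 8.86 CPM, and the female of 8 weeks outside it was at 8.91 CPM.

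The spread over libraries, one of the features that chose the pair, was wide for 1 arm. The standard deviation of log2(CPM + 1) over 39 libraries was 0.80 for miR-191-5p, the 21st largest of 142 arms with a mean of at least 100 CPM, whose median was 0.51. It was 0.45 for miR-425-5p, which ranked 89th. The rarer arms had standard deviations of 0.29 (miR-191-3p) and 0.68 (miR-425-3p). Counting error alone would give about 0.0050 for miR-191-5p at its median of 84745 counts, 0.05 for miR-425-5p, 0.12 for miR-191-3p and 0.16 for miR-425-3p. Differences between library sets held 89.3% of the variance of miR-191-5p and 70.3% of that of miR-425-5p, against a median of 49.0% over the 142 arms. Centred on the set, miR-191-5p had a standard deviation of 0.28, which ranked 118th of 142, and miR-425-5p one of 0.26.

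miR-191-5p was also set beside 14 miRNAs that are often used as references or are widely expressed, with the reads of duplicated loci summed. Their standard deviations ran from 0.25 (miR-26a-5p) to 0.71 (miR-24-3p) with a median of 0.48, and none exceeded that of miR-191-5p. For miR-425-5p, 8 of the 14 were wider. miR-93-5p, from the miR-25 cluster, stood at 0.42, let-7a-5p at 0.31 and miR-186-5p at 0.33.

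Over the 39 libraries the 5p arms of the hairpins had a weak negative correlation. Pearson's r of log2(CPM + 1) between miR-191-5p and miR-425-5p was -0.27 and Spearman's rho -0.26. It was 0.19 over the 12 males of 6 weeks, and 0.46 once each library was centred on its set. Within single sets r was 0.55 in set 1 (6 libraries), 0.67 in set 3 (8) and -0.50 in set 4 (6), so the sign was not the same in all sets. Without the 2 libraries farthest from the median of miR-191-5p it was -0.34, and without the 4 libraries dominated by 1 arm it was -0.49. These values share the library totals, and they describe the feature for which the pair was chosen.

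**Figure D2:**
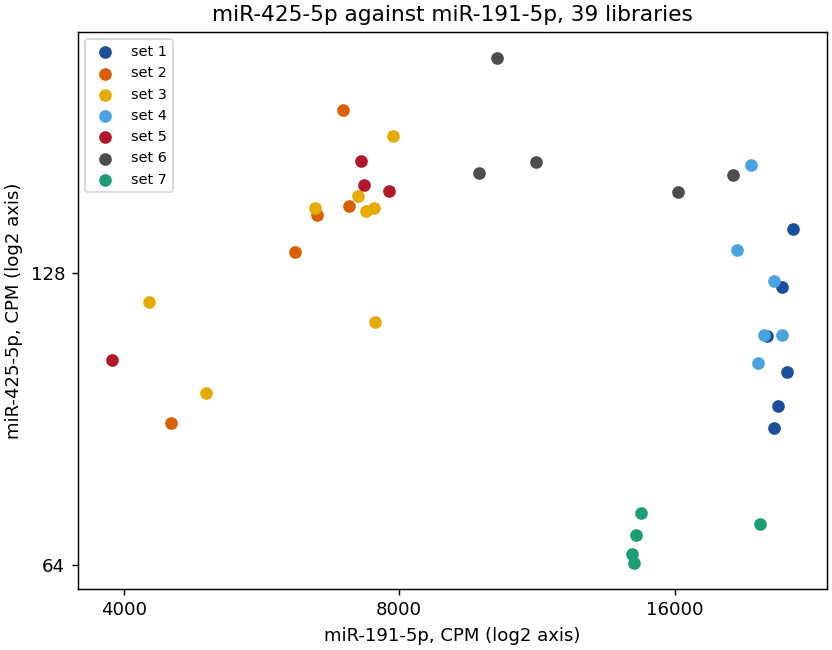
CPM of miR-425-5p against that of miR-191-5p in 39 libraries, both on log2 axes, coloured by library set. Sets 1 and 4 sit apart from sets 2, 3 and 5 along the axis of miR-191-5p, while sets 6 and 7 overlap. Over all libraries r was -0.27, and the 5 libraries of set 7 lie below all others for miR-425-5p.

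The arms within each hairpin had positive values. The r between miR-191-5p and miR-191-3p was 0.40, and that between miR-425-5p and miR-425-3p was 0.53. The first was 0.15 without the 4 libraries dominated by 1 arm, and 0.46 when centred on the set. On CPM scaled by TMM factors (a scaling that evens out the typical arm between libraries) it was 0.63. In the 12 males of 6 weeks it was 0.70, and within sets 1, 3 and 4 it was 0.58, 0.91 and 0.74. The r between miR-191-3p and miR-425-5p was 0.22, and 0.61 when centred on the set, but -0.27 on CPM scaled by TMM factors.

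Other neighbouring hairpins gave the scale. In all, 31 pairs of main arms with a mean of at least 100 CPM lay on 1 strand within 10 kb of each other and at least 100 bases apart, the latter a minimum set after seeing the pairs, to leave out arms of 1 hairpin. Their r had a median of 0.35, and 27 of 31 were above 0. The highest was 0.98 for let-7f-2-5p and miR-98-5p, 876 bases apart, and the lowest was that of miR-191-5p and miR-425-5p, whose arms start 468 bases apart. The next lowest was -0.22, for miR-1a-1-3p and miR-133a-2-3p. On CPM scaled by TMM factors the pair was not the lowest: its r was again -0.27, and those of let-7d-5p with let-7f-1-5p (-0.42), miR-30b-5p with miR-30d-5p (-0.41) and miR-1a-1-3p with miR-133a-2-3p (-0.32) were lower. With libraries centred on their set the median was 0.66, and the value of 0.46 for the pair was no longer at the end of the list. Several of these arms have an identical copy elsewhere in the genome, and how such reads were divided can change their r.

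**Figure D3:**
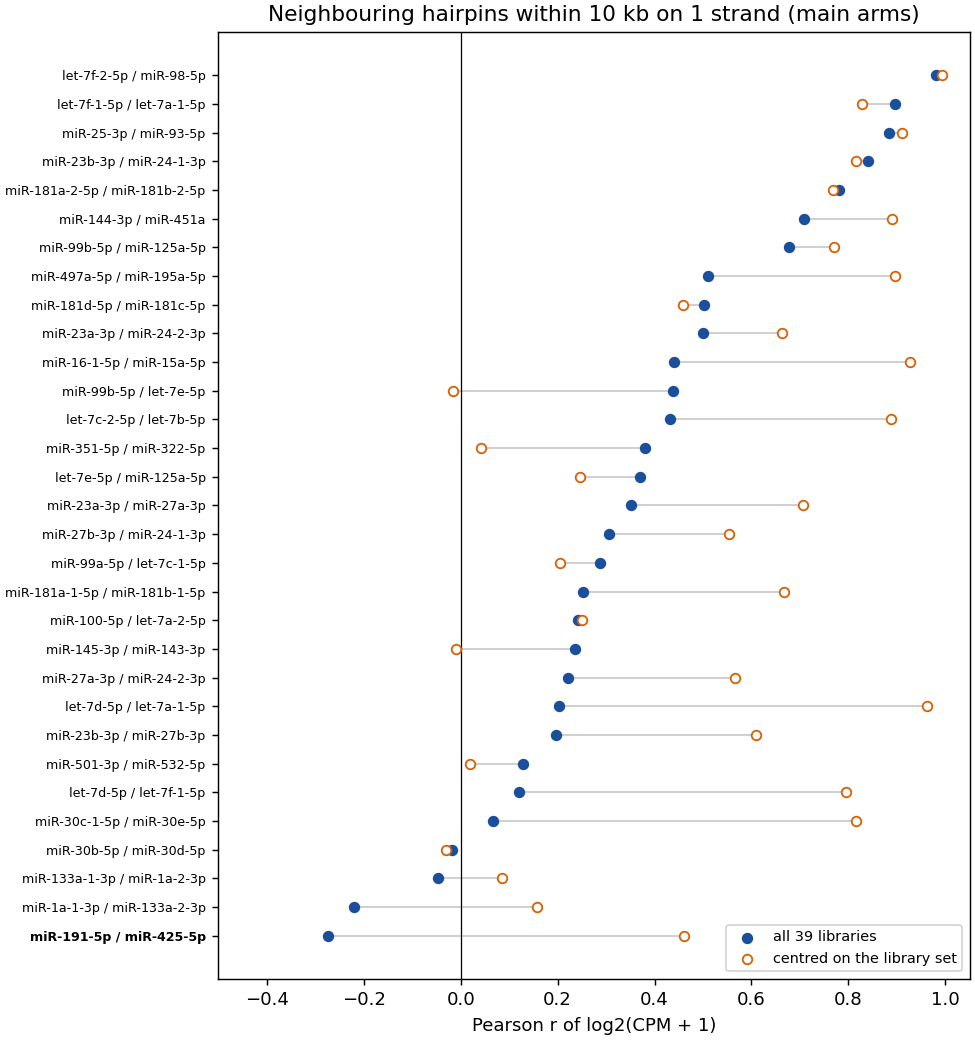
Pearson's r of log2(CPM + 1) for 31 pairs of neighbouring main arms, over 39 libraries (filled) and with libraries centred on their set (open). The pair of miR-191-5p and miR-425-5p (bold) is at -0.27 and moves to 0.46 when centred.

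The arms most like miR-191-5p across the 39 libraries, among those with a mean of at least 100 CPM, were miR-125b-2-3p with a Spearman's rho of 0.86, miR-146a-5p and miR-151-3p with 0.84 each, miR-351-5p with 0.84 and miR-342-3p with 0.82. miR-146a-5p, which restrains innate immune signalling, and miR-342-3p were also on the white blood cell list. miR-150-5p and miR-142a-5p, on the same list with means of 846 and 1613 CPM, were not among these 5 arms. The summed list had set medians from 0.308% to 0.375% of counts, and the part of white blood cells in the likeness was not tested. Centred on the set, the rho values of the 5 arms became 0.74, 0.41, 0.82, 0.74 and 0.79. The arms most like miR-425-5p were miR-16-2-5p (0.84), miR-139-5p (0.81), miR-93-5p (0.79), miR-140-3p (0.79) and miR-15a-5p (0.74). When centred on the set, these became 0.85, 0.41, 0.74, 0.73 and 0.70. The lists of 5 shared no arm, and the negative correlation of the 5p arms themselves left little room for a shared one.

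The share of each hairpin's arms moved with the sets as well. Counts of miR-191-5p per count of miR-191-3p (1 count added to each) had a median of 750.5 over all libraries and ran from 319 to 1520. The set medians were 1016, 1071 and 1082 in sets 1, 4 and 7, and 391, 399 and 460 in sets 2, 3 and 5. The ranges of these 2 groups of sets did not overlap (831 to 1249 against 319 to 504). Set 6 ran from 540 to 1520 and overlapped the higher group. The sets were grouped by their levels of miR-191-5p, which is part of this ratio, so the separation is no independent evidence. The ratio of miR-425-5p to miR-425-3p had a median of 12.9 and was lowest in sets 6 and 7, with medians of 7.07 and 7.77. Counts of miR-425-5p per count of miR-191-5p ran from 0.00357 to 0.0280.

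**Figure D4:**
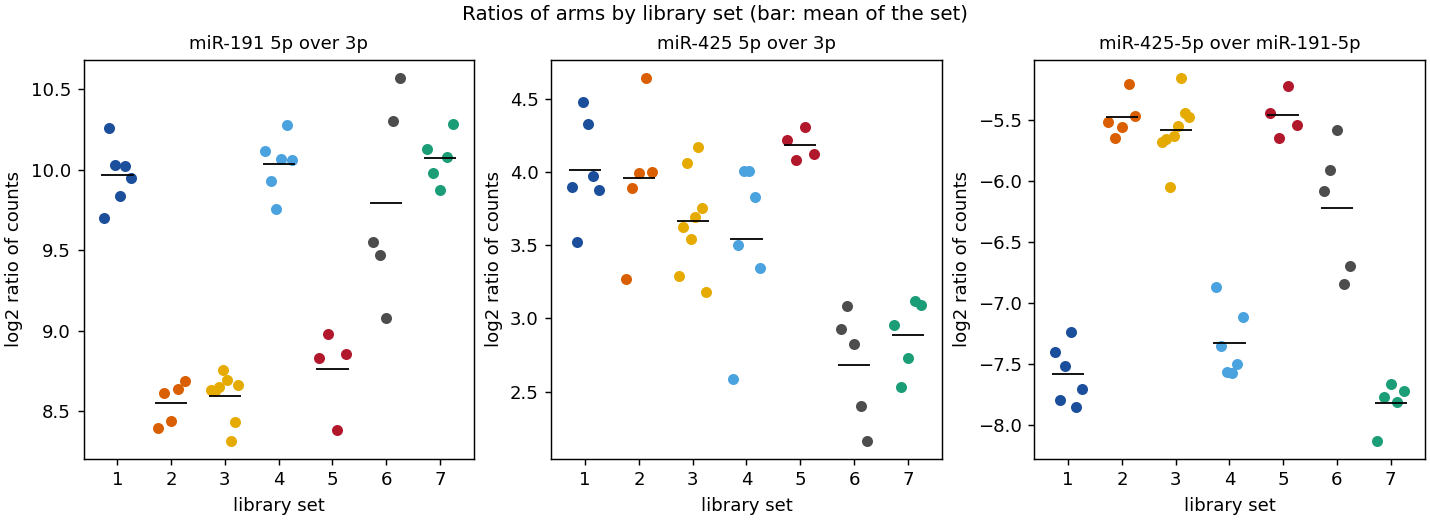
Log2 ratios of counts between arms in each library by library set, with the mean of the set as a bar. The ratio of the miR-191 arms was on average 8.55, 8.59 and 8.76 in sets 2, 3 and 5. It was 9.79 in set 6 and 9.97, 10.04 and 10.07 in sets 1, 4 and 7.

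The first comparison was between females and males at 6 weeks. No member arm differed in edgeR's quasi-likelihood test with Benjamini-Hochberg adjustment over 339 arms. None of the 339 arms was called (0.0%), 25 had an unadjusted p under 0.05, and DESeq2 called 0 with 31 such arms. The log2 difference, female minus male, was 0.62 ± 0.38 (SE) for miR-191-5p (adjusted p = 0.478), 0.04 ± 0.11 for miR-191-3p (0.851), -0.09 ± 0.12 for miR-425-5p (0.679) and -0.32 ± 0.28 for miR-425-3p (0.542), from 6 female and 12 male libraries. With the library set in the model the difference of miR-191-5p was -0.13 ± 0.06 (adjusted p = 0.489), so its direction turned. Within set 3 it was -0.23 (2 females, 4 males) and within set 4 it was -0.01 (3 and 3). Over the libraries numbered 1 to 6 in each sex alone, a choice made after seeing the data, miR-191-5p was called at 1.28 (edgeR adjusted p = 0.0286). In that fit 52 of 324 tested arms were called, 35 higher and 17 lower in females. The males numbered 1 to 6 lay in sets 2 and 3 only, so the 3 males of set 4 were left out. The 6 females lay in sets 1, 3 and 4, and the part of the sets in the call of miR-191-5p was not tested.

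The ratios between arms gave no call for sex either. The log2 ratio of miR-191-5p to miR-191-3p was 8.94 ± 0.62 (SD, n = 12) in males and 9.52 ± 0.89 (SD, n = 6) in females, with an adjusted p = 0.166 in a two-sided exact permutation test, adjusted over 9 tests. That of miR-425-5p to miR-425-3p was 3.70 ± 0.52 and 3.83 ± 0.28 (adjusted p = 0.588, exact permutation test). That of miR-425-5p to miR-191-5p was -6.02 ± 0.79 and -6.75 ± 1.15 (adjusted p = 0.166, exact permutation test).

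In males the hairpins had age slopes of opposite sign, but between 5 and 6 weeks age cannot be told apart from library set. Over the 22 males of 4 to 8 weeks, both arms of Mir191 fell and both arms of Mir425 rose. The log2 change per week was -0.39 ± 0.12 (SE) for miR-191-5p (edgeR adjusted p = 0.0193) and -0.18 ± 0.05 for miR-191-3p (0.00708). It was 0.12 ± 0.04 for miR-425-5p (0.0312) and 0.34 ± 0.11 for miR-425-3p (0.0193). Of 346 arms tested 121 were called, or 35.0%: 47 rose (13.6%) and 74 fell (21.4%). All 4 members were called, in a comparison where calls were common. Scaled by library totals alone, 61 arms rose and 35 fell, and miR-191-3p was no longer called (adjusted p = 0.140). With no filter on low counts neither Mir191 arm was called (0.0560 and 0.185), and with the 16-week library added the slope of miR-191-5p was -0.01 (adjusted p = 0.932).

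None of these calls held once the library set entered the model. The slopes were then 0.00 ± 0.09 for miR-191-5p, -0.01 ± 0.14 for miR-191-3p, 0.12 ± 0.16 for miR-425-5p and -0.23 ± 0.35 for miR-425-3p, with adjusted p from 0.852 to 0.992, and 0 of 346 arms were called (20 at an unadjusted p under 0.05 in edgeR). All males of 4 and 5 weeks were in set 1, which held no male of another age. Within set 1, over 4 to 5 weeks (5 libraries), the slope was 0.03 for miR-191-5p and 0.09 for miR-425-5p, and within set 3, over 6 to 7 weeks (5 libraries), it was -0.05 and 0.15. Over 6 to 8 weeks alone the slope of miR-191-5p was -0.07 ± 0.20 (adjusted p = 0.857) and that of miR-425-5p was 0.17 ± 0.06 (adjusted p = 0.0783). The call of miR-425-5p was also lost without any 1 of 6 males (replicate 2 of 4 weeks, replicate 1 of 5 weeks, replicates 2 and 3 of 6 weeks, replicates 2 and 4 of 8 weeks), with adjusted p up to 0.101, and that of miR-425-3p without either of 2 males of 8 weeks, replicates 2 and 4 (adjusted p = 0.0520 and 0.0880).

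**Figure D5:**
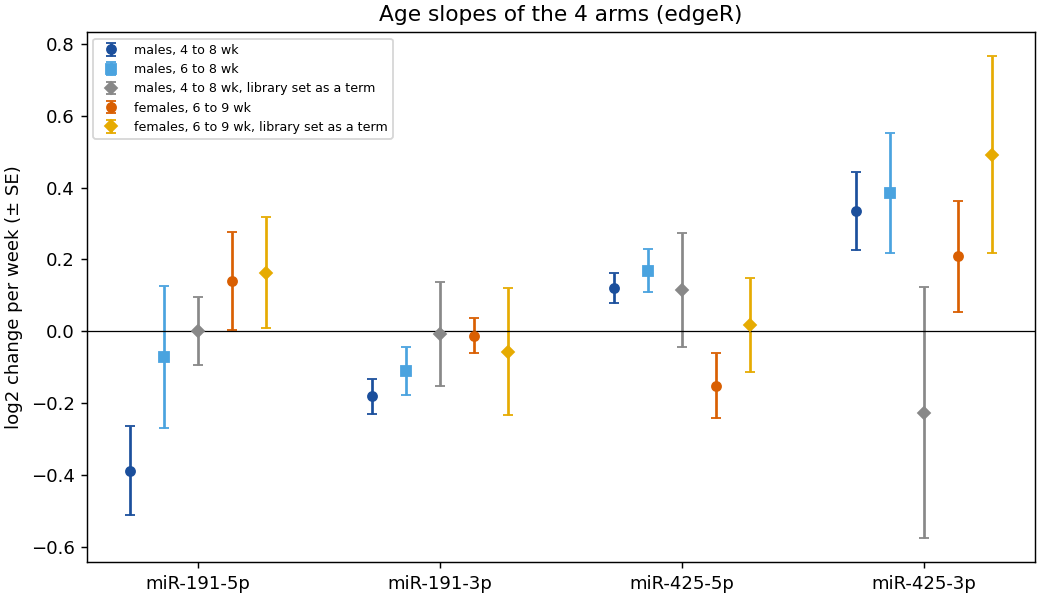
Log2 change per week (± SE) of the 4 arms from edgeR, in males and females, with and without the library set as a term. In males of 4 to 8 weeks the Mir191 arms lie below 0 and the Mir425 arms above it, and with the set in the model all 4 intervals of 1 SE reach 0.

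The arms most like the members had slopes of the same sign with age in males. Among the 5 arms most like miR-191-5p, miR-146a-5p fell by 0.64 on the log2 scale per week (edgeR adjusted p = 0.0307), miR-351-5p fell by 0.47 (adjusted p = 0.000364) and miR-151-3p fell by 0.26 (adjusted p = 0.00255). The slopes of miR-125b-2-3p (-0.11) and miR-342-3p (-0.21) were not called. Among those most like miR-425-5p, 4 of 5 rose, by 0.12 (miR-15a-5p) to 0.22 (miR-139-5p), and the slope of 0.15 for miR-93-5p was not called. They were picked for their likeness in the same libraries, so these slopes are no independent evidence.

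The listed miRNAs served as a scale. Of 21 tested arms on the reference list, 4 rose, 4 fell and 13 were not called in males, with a median slope of -0.02 beside 0.00 over all 346 arms. let-7a-1-5p rose by 0.35 per week and miR-484 fell by 0.36, while miR-26a-2-5p fell by 0.11. On the red blood cell list 1 of 7 arms rose and none fell, with a median of 0.14, and the call was miR-144-3p (0.48). On the white blood cell list 2 of 7 tested arms rose (miR-150-5p by 0.36 and miR-155-5p by 0.24) and 1 fell (miR-146a-5p). On the heart muscle list 2 of 12 rose (both arms of miR-133a-1) and 1 fell, miR-208b-3p, which lies in the gene of the slow myosin Myh7. On the endothelial list 1 of 2 arms rose (miR-126a-3p by 0.17) and none fell, with a median slope of 0.09. On the smooth muscle list 1 of 4 fell (miR-145-3p by 0.48) and none rose, with a median of -0.24. On the fibroblast list 1 of 8 fell (miR-199a-2-3p by 0.13) and none rose, with a median of 0.01. The part of cell composition in the slopes of the members was not tested.

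In females no member was called with age. Over 16 females of 6 to 9 weeks the slope was 0.14 ± 0.14 for miR-191-5p (edgeR adjusted p = 0.702), -0.01 ± 0.05 for miR-191-3p (0.979), -0.15 ± 0.09 for miR-425-5p (0.378) and 0.21 ± 0.15 for miR-425-3p (0.507). In this comparison 10 of 331 arms were called (3.02%). With the counts of miR-143-3p and miR-378a-3p taken out of the totals and no TMM factors, miR-425-5p passed the test (-0.30 per week, adjusted p = 0.0346). Under that scaling the median slope over all arms was -0.14, and 63 of 331 arms were called, 60 of them falling. miR-425-5p also passed without the second female of 8 weeks (adjusted p = 0.0480), where 75 of 328 arms were called. Without the 9-week libraries, an alternative chosen after seeing the data, the slope of miR-425-5p was 0.29 and not called (adjusted p = 0.113), so the sign rested on that age and set. Within sets 3 and 5 (3 females each) it was 0.09 and -0.06.

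The difference of the age slopes between the sexes, over 6 to 8 weeks, was not called for any member, and 7 of 346 arms were called (2.02%). It was -0.05 ± 0.35 for miR-191-5p (edgeR adjusted p = 0.956) and 0.14 ± 0.11 for miR-425-5p (adjusted p = 0.472). With the library set in the model, miR-191-5p was called at 0.46 ± 0.10 (adjusted p = 0.00804), as one of 94 called arms. Without female replicate 2 of 8 weeks, the shallowest library, left out after that call was seen, the value was 0.12 ± 0.09 (adjusted p = 0.994) and 0 arms were called, so the call rested on this library.

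The ratios between arms gave 2 calls with age, each of a log2 ratio against age in a two-sided permutation test with 100000 resamples and adjustment over 9 tests. The ratio of miR-425-5p to miR-191-5p rose by 0.50 per week in the 22 males (r = 0.62, adjusted p = 0.0155). This ratio joins the 2 arms whose values chose the pair and restates their opposite slopes, so it is no independent evidence. In the 16 females the ratio of miR-425-5p to miR-425-3p changed by -0.33 per week (r = -0.67, adjusted p = 0.0289). The second call was lost without replicate 1 or 3 of the 6-week females or replicate 2 or 3 of the 9-week females (adjusted p up to 0.0643), and without the libraries dominated by 1 arm (0.0627). With the ratios but not the ages centred on the library set, these slopes were 0.07 (adjusted p = 0.575) and -0.06 (adjusted p = 0.587). Such centring pulls a slope towards 0 where set and age go together. It therefore cannot decide whether the calls hold within sets. The ratio of the miR-191 arms was not called in males (-0.20 per week, adjusted p = 0.166) or in females (0.22, adjusted p = 0.184). The remaining ratio slopes were -0.19 for miR-425-5p to miR-425-3p in males and -0.36 for miR-425-5p to miR-191-5p in females, both with an adjusted p = 0.166. Without replicate 1 of the 8-week males, left out after seeing the data, the first of these was called (-0.26, adjusted p = 0.0434).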

How the data were processed

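Each library's deposited file listed raw counts for mature miRNA arms; libraries were made with a TruSeq small RNA kit and read on a HiSeq instrument, per the labels. The build was GRCm38 per the submitters' processing notes, which also name DESeq and edgeR with no role. How reads were aligned, and how those fitting more than 1 locus were counted, is not given in the sources used here.

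Windows deposited as antisense were named after a RefSeq arm on their own strand when they shared at least 10 bases. CPM was the count over the file total. Tests used edgeR 4.0.16 in R 4.3.3 (quasi-likelihood, TMM factors, CPM of 5 or more in at least 5 libraries, adjusted p under 0.05), with DESeq2 1.42.0 as an alternative, and permutation tests in Python 3.11.15. The code was tested on simulated data. Library sets came from average-linkage clustering of the logit shares of 10 duplicated loci, cut at 7 sets, a number taken from earlier results of these data. No 2 libraries of a group agreed within sampling noise (chi-square per degree of freedom of at least 36.0 over 105 pairs). Folding used RNAfold 2.7.2. Members and lists were chosen with earlier results of these data known. Named arms were the members, arms sharing a seed, the 5 most like each 5p arm, the extreme neighbouring pairs and the listed miRNAs. The labels do not pair the 6-week libraries by replicate number, and 2 of 6 same-numbered pairs had a correlation over 0.1. Only number 6 fell in the same library set in both sexes, so these correlations cannot decide whether the numbers pair libraries.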

Additional observations from a re-analysis of the deposited data

Results flagged for a closer look

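Of 21 sets of values (4 arms and 3 ratios in each of the groups with 4 to 10 libraries), 2 held a library far from the rest, where chance flags about 1 in 20. The first female of 9 weeks held 19809 CPM of miR-191-5p, while the other 4 of that age stood at 14366 to 14688 CPM. The fourth male of 8 weeks held 213 CPM of miR-425-5p, while the other 3 stood at 162 to 167 CPM. Both libraries are from sets that hold other libraries of the same group.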

How the results depend on the processing

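Effects below are on the log2 scale, and the cause of a change was not tested unless stated. Set as a term in the model leaves few libraries to separate age from set. At the depth of the rare 3p arms (18 counts at least for miR-191-3p and 30 for miR-425-3p), counting error limits single libraries. Numbers of the 6-week libraries do not pair them by the labels. Over numbers 1 to 6 with a replicate block the sex difference of miR-191-5p was 1.10 and 0 of 324 arms were called. The same numbers with no block, a choice made after seeing the data, gave 1.28 for miR-191-5p (edgeR adjusted p = 0.0286) and 52 called arms of 324. Numbers 1 to 6 left out the 3 males of set 4 and no female. With the block, miR-191-3p, miR-425-5p and miR-425-3p gave 0.13, -0.16 and -0.14; 1 of 6 pairs correlated best within its own number.

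For sex at 6 weeks, the set term gave -0.13 (miR-191-5p), -0.12 (miR-191-3p) and 0.0034 (miR-425-5p). Sets 3 and 4 alone, chosen after seeing the data, gave -0.13, -0.11 and 0.0060, and library totals alone gave -0.016 for miR-191-3p. Single libraries left out moved miR-191-3p from -0.011 to 0.093.

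For age in males, 0 arms were called with the set term, 38 over 6 to 8 weeks and 65 with the 16-week library, against 121. The set term gave 0.0015 (miR-191-5p), -0.0072 (miR-191-3p), 0.12 (miR-425-5p) and -0.23 (miR-425-3p). Over 6 to 8 weeks the same arms gave -0.071, -0.11, 0.17 and 0.39, none called. With the 16-week library miR-191-5p gave -0.011 and miR-191-3p -0.046, while both Mir425 arms were called. Library totals alone gave -0.11 for miR-191-3p, and no filter on low counts gave -0.33 for miR-191-5p and -0.12 for miR-191-3p. Leaving out single libraries gave 0.098 to 0.15 for miR-425-5p and 0.27 to 0.39 for miR-425-3p.

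For age in females, 48 arms were called by DESeq2, 1 with no filter, 0 with the set term, 63 with totals without miR-143-3p and miR-378a-3p and 16 over 6 to 8 weeks (chosen after seeing the data), against 10. Single libraries left out gave 0 to 75, the highest without the second female of 8 weeks. DESeq2 gave 0.0057 for miR-191-3p. For miR-425-5p the set term gave 0.018, the totals without both arms -0.30 and 6 to 8 weeks 0.29, where miR-191-5p gave -0.15. Leaving out single libraries gave -0.049 to 0.011 for miR-191-3p and -0.19 to -0.12 for miR-425-5p.

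For the difference of slopes, 18 arms were called by DESeq2, 0 with library totals alone, 1 with no filter, 94 with the set term, 1 without dominated libraries and 0 with totals without both arms, against 7. With 1 library left out the count ran from 1 to 89. The set term gave 0.46 for miR-191-5p and 0.081 for miR-191-3p. With the second female of 8 weeks also left out, a choice made after seeing the data, they were 0.12 and 0.10 and 0 arms were called. Totals without both arms gave -0.015 for miR-425-5p. Leaving out single libraries gave -0.61 to 0.081 (miR-191-5p), -0.059 to 0.026 (miR-191-3p) and -0.21 to 0.63 (miR-425-3p).

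For the ratios, centring on the set gave -0.023 for the miR-191 arms and 0.081 for miR-425-5p to miR-191-5p with sex. Only the ratios were centred and not the ages, which pulls the age slopes towards 0. With age in males centring gave 0.076 for the miR-425 arms and 0.075 for miR-425-5p to miR-191-5p, and in females -0.061 for the miR-425 arms. That last ratio was -0.30 without dominated libraries (adjusted p = 0.0627). Leaving out single libraries, after seeing the data, gave -0.26 to -0.14 for the miR-425 arms in males and -0.37 to -0.30 in females, where 4 of 16 ended the call. In males 1 of 22, replicate 1 of 8 weeks, brought a call (adjusted p = 0.0434). Adding 0.5 counts changed no call.

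The r of miR-191-5p with miR-425-5p was 0.46 centred on the set, -0.49 without dominated libraries, 0.19 in 6-week males and 0.70 in these centred, the last pair chosen after seeing the data. The r of miR-191-5p with miR-425-3p was -0.14 without dominated libraries and -0.0015 to 0.11 when leaving out single libraries. The r of miR-191-3p was -0.27 with miR-425-5p on TMM-scaled CPM, and with miR-425-3p it was 0.22 centred on the set and 0.12 in 6-week males.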
